A study of Mus musculus with 40 samples.

Results

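The genes described here are Cpt2, Hadh, Scp2, Slc27a2 and Pex7, which act in fatty acid oxidation and in peroxisomes. They were chosen by name, as every spot whose single gene symbol is one of these 5, and each gene had 1 spot, so 5 of the 5760 spots on the array are followed here across all 40 samples. Fatty acids are activated to acyl-CoA before they are broken down. Long chains then enter mitochondria on carnitine and lose carbon units in the beta-oxidation spiral, while very long and branched chains are shortened first in peroxisomes. Liver, muscle and fat all oxidise fatty acids, and liver and kidney are rich in peroxisomes.

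RNA of mouse tissues, primary cells and cell lines was hybridised to nylon filters, 1 sample per filter, and a gene's level is the log2 of its quantile-normalised spot intensity after an offset of 36370 was added. The tissues were liver (2 samples) and tibialis muscle (2). From inguinal white adipose tissue there were adipocytes released with collagenase (3) and the adherent stroma-vascular fraction (SVF) 24 h after plating (3), and from the peritoneal cavity adherent macrophages 24 h after plating (3). The differentiated lines were 3T3-F442A adipocytes at day 7 with rosiglitazone, a PPARγ agonist (3), and C2C12 myotubes at day 7 in low serum (2). Their proliferating counterparts were C2C12 myoblasts (3) and 4 preadipocyte lines, 3T3-L1, 3T3-F442A, Ob1774 and Hgfu. These gave 5 samples, of which the 2 of 3T3-L1 were averaged in the tests. The other lines were the macrophage lines Raw 264 (3) and J774 (2), ZIN40 embryonic stem (ES) cells without LIF (3) and with LIF (3), and the mesenchymal line C3H-10T1/2 (3). The labels used here name no strain, age or genotype. For C2C12 in proliferation the source name speaks of a preadipocyte line, and the title was followed. Liver and tibialis are whole tissue and hold several cell types, and the lines are established lines grown at low density or after confluence. Except for the 4 preadipocyte lines, the labels do not state whether the samples of a group were separate cultures or animals, and p-values therefore reflect only how far these samples vary, part of which may be technical.

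The median raw intensity of an array lay between 18870.5 and 132228 in 37 arrays. The 3 arrays of ES cells without LIF stood apart. Their 99th percentile was 60.0 to 391-fold above the array's own median, where the remaining 37 arrays had 3.87 to 17.5-fold. For that reason the levels of these 3 arrays are given but enter no test between groups. They are counted where samples are only ranked, as among the 38 samples outside liver. These 3 arrays did take part in the normalisation and in the spread that the groups share in the fit. Replicates of a group correlated at 0.817 to 0.968 across spots. All 5 measured hepatocyte markers had their highest group mean in liver, as did 5 of 6 skeletal muscle markers in tibialis, 3 of 5 macrophage markers in peritoneal macrophages and 2 of 4 adipocyte markers in inguinal adipocytes. No measured spot marks pluripotent cells, so the ES cell label was not checked.

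Scp2 and Slc27a2 were the members that differed among the 13 comparable groups, both with their highest level in liver. In a limma F test across these groups, Slc27a2 ranked 21 among all 5760 spots (adjusted p = 4.72e-07) and Scp2 ranked 121 (adjusted p = 0.000654), where 10.9% of all spots were called. Pex7 (adjusted p = 0.0855), Hadh (adjusted p = 0.294) and Cpt2 (adjusted p = 0.578) were not called by the same limma F test. In bulk samples, fewer cells of a type and less RNA per cell cannot be told apart. The promoters of the liver-high pair are shown because both genes stood out in the same tissue. They are the 250 bases before the start that the RefSeq table for GRCm38.p6 lists, chr4:108118548-108118797 on the minus strand for Scp2 and chr2:126552774-126553023 on the plus strand for Slc27a2, written 5′ to 3′ in the direction of the gene. Capitals mark AGGTCA, the half-site bound by many nuclear receptors, or its reverse complement TGACCT.
Scp2: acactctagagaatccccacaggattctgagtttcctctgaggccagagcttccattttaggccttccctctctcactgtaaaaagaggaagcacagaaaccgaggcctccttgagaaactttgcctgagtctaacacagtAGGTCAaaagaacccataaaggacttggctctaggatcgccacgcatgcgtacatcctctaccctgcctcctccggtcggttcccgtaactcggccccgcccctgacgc
Slc27a2: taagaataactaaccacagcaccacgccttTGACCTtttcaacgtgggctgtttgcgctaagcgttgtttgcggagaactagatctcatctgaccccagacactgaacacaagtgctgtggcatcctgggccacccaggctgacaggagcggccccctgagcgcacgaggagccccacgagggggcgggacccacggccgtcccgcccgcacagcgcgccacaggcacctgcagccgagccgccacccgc
The half-site was searched on both strands. It begins 109 bases before the start in Scp2 and 220 bases before it, on the opposite strand, in Slc27a2, and 14.02% of the 32851 promoter windows in the table hold it. It is not in the windows of Cpt2, Hadh and Pex7. A direct repeat of it, AGGTCA followed by any 1 base and AGGTCA again, is in none of the 5 windows and in 0.03348% of all windows. The GC box GGGCGG, in 32.74% of all windows, occurs 2 times each in Cpt2, Hadh and Slc27a2, 1 time in Scp2 and not in Pex7. CCAAT, in 33.85% of windows, occurs 2 times in Pex7, 1 time in Hadh and not in the others. The Scp2 window lies inside the annotated span of the gene, chr4:108043830-108144971, at the start the table gives. These matches describe letters in a window and say nothing of binding.

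**Figure D1:**
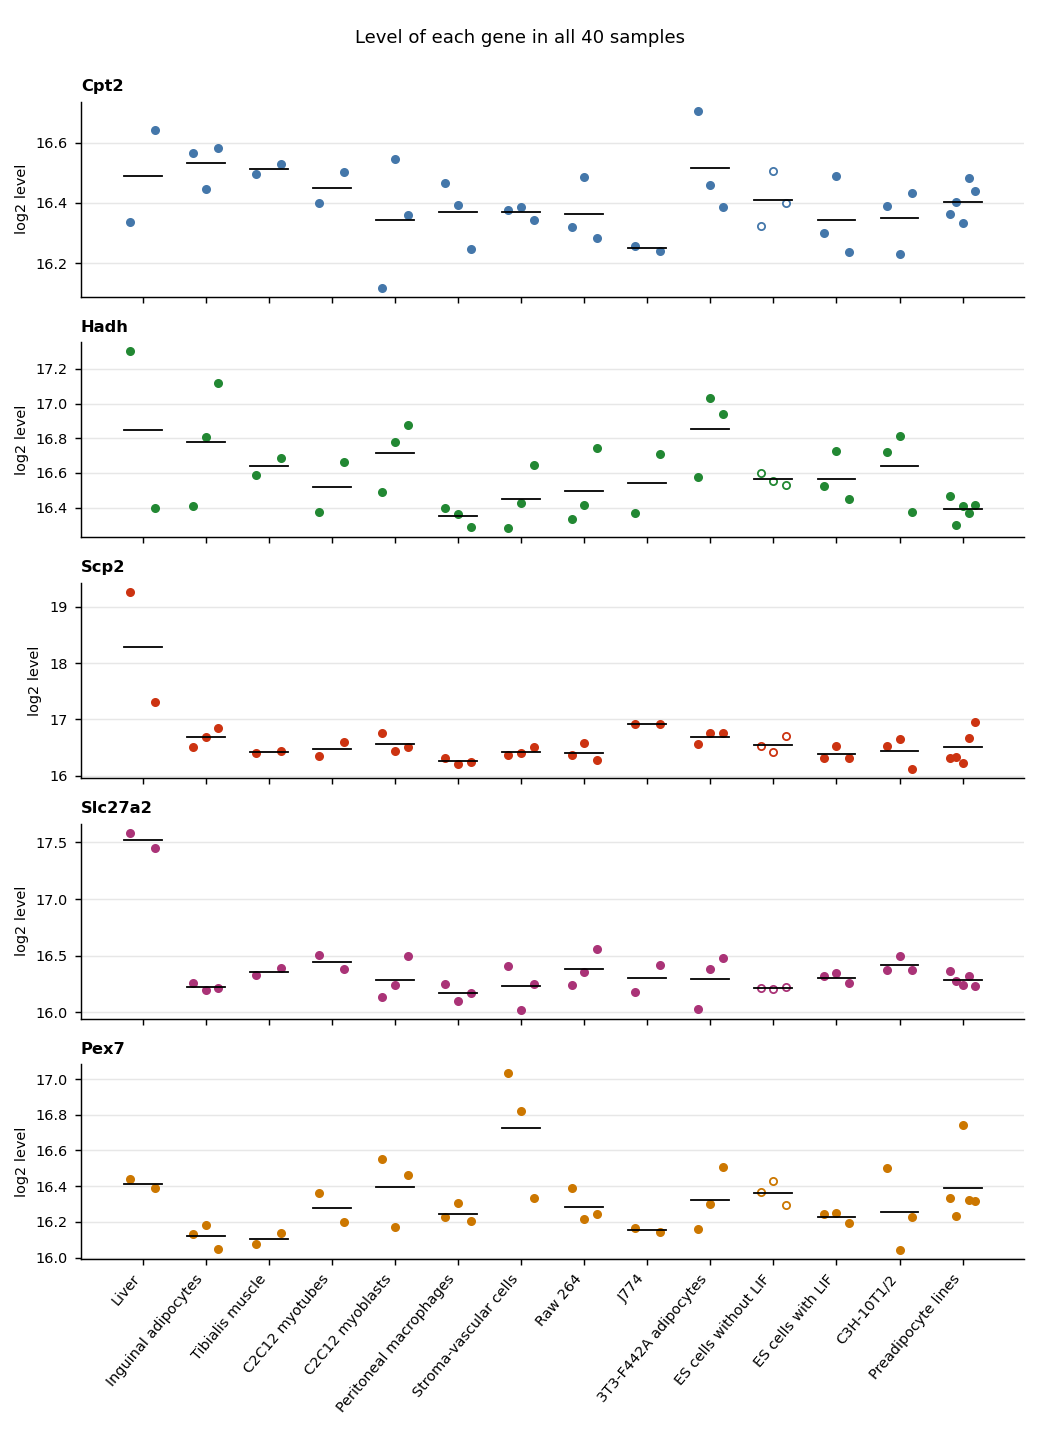
Level of each gene in all 40 samples (y axis: log2 of normalised intensity plus offset, 1 panel per gene with its own range). Points are samples, bars are means of the samples shown, and open points are ES cells without LIF, whose arrays are not comparable. The bar of the preadipocyte lines averages 5 samples, while the group mean in the text averages 4 lines. Slc27a2 and Scp2 are highest in liver, where both samples lie above the other 38, while for Cpt2 and Hadh every group overlaps with its neighbours in the order of means.

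Slc27a2 encodes the transporter and very long chain acyl-CoA synthetase FATP2, which activates fatty acids at the endoplasmic reticulum and in peroxisomes and is known as abundant in liver and kidney. Its gene lies at chr2:126553024-126588243. Its levels were 17.59 and 17.45 in the 2 liver samples, against 16.33 and 16.39 in tibialis muscle and 16.25, 16.20 and 16.22 in inguinal adipocytes. The liver samples were alike and lay far above both other groups. Each liver sample was above all 38 other samples, whose highest value was 16.56 in a Raw 264 sample, a pattern that 1.15% of all spots shared. Within its own array the spot stood at percentile 93.0 and 92.5 in liver, against 32.8 and 42.2 in tibialis.

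The liver level of Slc27a2 was 1.16 ± 0.13 log2 units above tibialis (SE, limma adjusted p = 4.61e-07) and 1.30 ± 0.12 above inguinal adipocytes (SE, limma adjusted p = 1.46e-08). In these comparisons 1.25% and 1.91% of all spots were called higher in liver. The other 9 comparisons gave Slc27a2 differences of -0.17 to 0.16 and no call. Inguinal adipocytes were lower than tibialis in every sample, by 0.14 ± 0.12 (SE, limma adjusted p = 0.999), a pattern seen in 13.1% of spots. Without liver, the 12 remaining group means spanned 0.27 log2 units, from C2C12 myotubes at 16.45 downward to peritoneal macrophages. No pair of neighbours in that order was separated. The next group after liver was C2C12 myotubes, 1.07 lower.

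Cpt2 encodes carnitine palmitoyltransferase 2 of the inner mitochondrial membrane, which returns long acyl groups from carnitine to CoA for oxidation. Its gene lies at chr4:107903982-107923589. Its levels were 16.34 and 16.64 in liver, 16.57, 16.45 and 16.58 in inguinal adipocytes and 16.50 and 16.53 in tibialis. The 3 groups overlapped. Across the 13 groups the means spanned 0.28 log2 units, with inguinal adipocytes at the top and J774 at the bottom, and none of the 12 pairs of neighbours in that order was separated.

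No comparison called Cpt2: the 11 differences lay between -0.04 and 0.16, their 95% intervals between -0.29 and 0.38, and the smallest limma adjusted p was 0.722. The widest difference was between inguinal adipocytes, as above, and SVF at 16.38, 16.39 and 16.34. Every adipocyte sample was higher than every SVF sample there, as it was for 10.8% of all spots. 3T3-F442A adipocytes had 16.71, 16.46 and 16.39, against 16.36 and 16.40 in the 3T3-L1 samples, 16.33 in the 3T3-F442A line, 16.48 in Ob1774 and 16.44 in Hgfu. The adipocyte and preadipocyte samples overlapped.

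Hadh encodes the mitochondrial 3-hydroxyacyl-CoA dehydrogenase for short and medium chains, a step of the beta-oxidation spiral. Its gene lies at chr3:131233419-131272101. Its levels were 16.58, 17.03 and 16.94 in 3T3-F442A adipocytes, against 16.47 and 16.30 in the 3T3-L1 samples, 16.41 in the 3T3-F442A line, 16.37 in Ob1774 and 16.41 in Hgfu. Every adipocyte sample was above every preadipocyte sample, the lowest by a small margin. The difference was 0.46 ± 0.16 log2 units (SE), with a limma adjusted p of 0.306 over all spots and no call. In the same comparison 2.81% of spots had all adipocyte samples higher and 0.156% were called higher. None of the 4 measured adipocyte markers was called in it.

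Hadh in the other differentiated line went the opposite way without a call. C2C12 myotubes had 16.37 and 16.66, against 16.49, 16.78 and 16.88 in myoblasts, and the groups overlapped. Here 0.226% of all spots were called, and no member was. The difference of the differences, 3T3-F442A minus C2C12, was 0.65 ± 0.25 (SE, limma adjusted p = 0.379), and for the other 4 members it lay between -0.14 and 0.25 with no call.

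In cells of inguinal fat, where the adipocytes were freshly isolated and the SVF had been plated for 24 h, Hadh had 16.41, 16.81 and 17.12 in inguinal adipocytes, against 16.28, 16.43 and 16.65 in SVF. The lowest adipocyte sample lay within the SVF range. The difference was 0.33 ± 0.17 (SE, limma adjusted p = 0.621). With weights per array in the fit, which differ by how well each array follows its group, Hadh was called in both adipocyte comparisons, at 0.57 (limma adjusted p = 0.0192) for 3T3-F442A and 0.37 (limma adjusted p = 0.0370) for inguinal adipocytes, and the count over all spots grew to 131 and 522.

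The 2 liver samples disagreed on Hadh, with 17.30 and 16.40, so that liver held both the highest sample of the series and one below all tibialis values of 16.59 and 16.69. Peritoneal macrophages had the lowest group mean, with 16.40, 16.36 and 16.29. The group means spanned 0.50 log2 units, and none of the 12 pairs of neighbours in the order was separated.

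**Figure D2:**
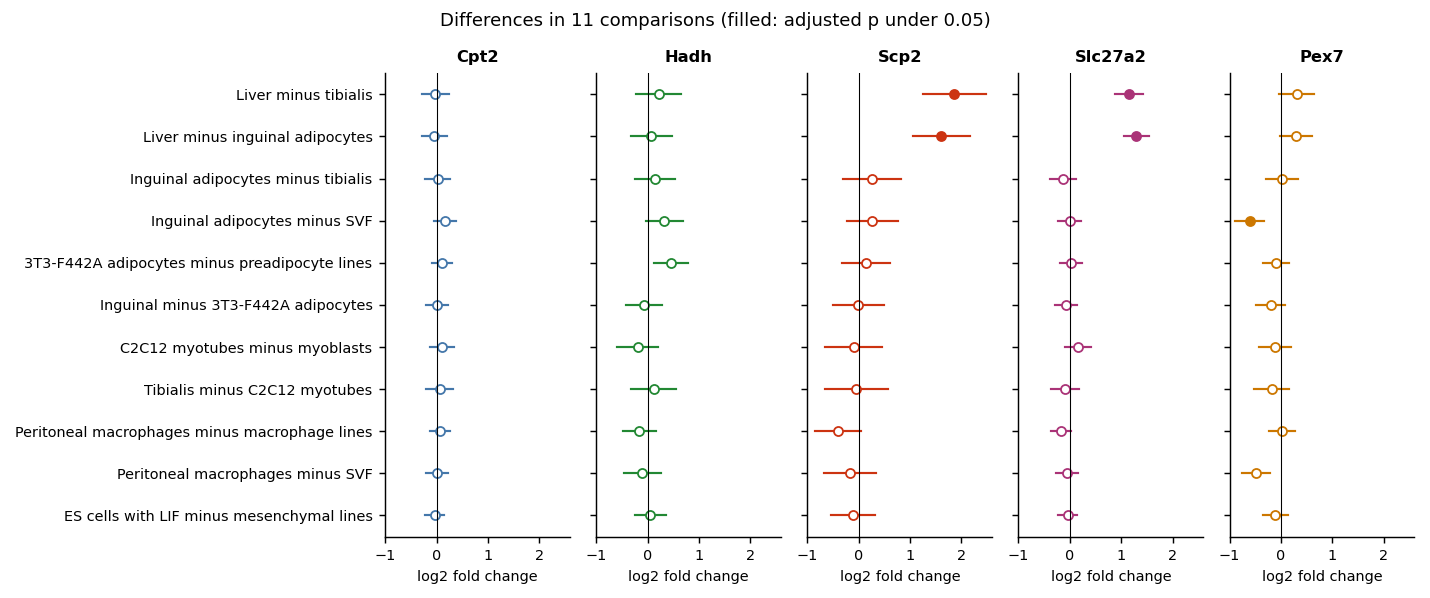
Log2 fold change of each gene (x axis, points with 95% intervals) in 11 comparisons (rows). Filled points had a limma adjusted p under 0.05; these are Slc27a2 and Scp2 in both liver comparisons and Pex7 in inguinal adipocytes minus SVF, 5 of 55 values.

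Scp2 encodes the peroxisomal thiolase SCPx, which acts on branched chains and bile acid intermediates, and from a separate start the lipid carrier sterol carrier protein 2. The spot's sequence was not given, so the transcripts it reads are not known here. Its levels were 19.27 and 17.31 in liver, against 16.41 and 16.44 in tibialis and 16.50, 16.69 and 16.85 in inguinal adipocytes. Both liver samples were above all 38 others, whose highest value was 16.94 in Hgfu, although they differed from each other by 1.96. The percentile within the array was 99.1 and 91.7 in liver, against 44.9 and 50.4 in tibialis.

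Scp2 was 1.86 ± 0.30 log2 units higher in liver than in tibialis (SE, limma adjusted p = 0.000178), and 1.61 ± 0.27 higher in liver than in inguinal adipocytes (SE, limma adjusted p = 0.000620). These SEs rest on a spread shared by all 14 groups, while Scp2 in the 2 liver samples had an SD of 1.38. With only liver and tibialis in the fit, the SE against tibialis was 0.62. Both differences depend on liver replicate 1. Against tibialis the difference was 0.89 without that sample (limma adjusted p = 0.0255) and 2.84 without replicate 2. Against inguinal adipocytes it was 0.63 without replicate 1 (limma adjusted p = 0.102), which ended the call, and 2.59 without replicate 2. Slc27a2 was 1.09 to 1.23 above tibialis and 1.23 to 1.36 above inguinal adipocytes with 1 liver sample left out, and was called each time. In these fits liver is a single sample, assumed to vary like the other groups, so the adjusted p-values do not rest on a spread within liver.

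Hepatocyte markers differed between the liver samples as well. Replicate 1 exceeded replicate 2 by 1.46 in Apoc1, 0.27 in Ttr, 1.46 in Fgb, 2.64 in Hpx and 1.86 in Rbp4, plasma proteins and apolipoproteins that served as hepatocyte markers. It also had more Hbb-b1, haemoglobin from red blood cells, at 19.11 against 17.03. The mean level of the 5 hepatocyte markers was 18.98 in replicate 1 and 17.44 in replicate 2. The part of these differences in the Scp2 result was not tested. For Cpt2, Slc27a2 and Pex7 the samples differed by -0.31, 0.13 and 0.05.

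**Figure D3:**
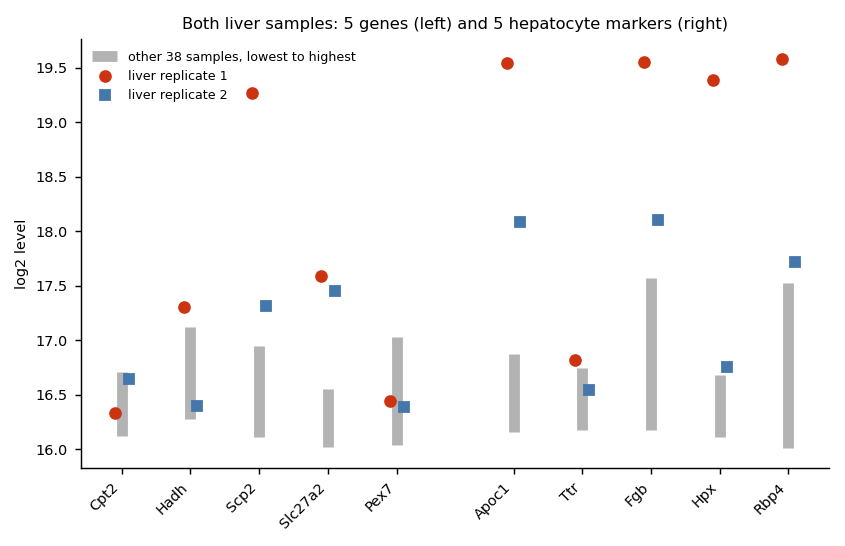
Level (y axis, log2) of the 5 genes and of 5 hepatocyte markers in liver replicate 1 (circles) and replicate 2 (squares), with the range of the other 38 samples as grey bars. Scp2 and most markers are farther above the bars in replicate 1, while Slc27a2 is nearly equal in both.

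Before normalisation the liver arrays were dim next to the tibialis arrays. Cpt2 read 30071 and 21480 in liver, against 100502 and 138959 in tibialis. Slc27a2 read 85086 and 33989 in liver, against 85129 and 126282 in tibialis. Tibialis was also bright beside inguinal adipocytes: in unscaled values the median of inguinal adipocytes minus tibialis was -0.75. With no scaling the median of all spots in liver minus tibialis was -1.53, and Scp2 (-0.43) and Slc27a2 (-0.71) lay above it. In a fit of liver and tibialis alone neither was called (limma adjusted p = 0.434 for Scp2 and 0.127 for Slc27a2), with 2 of 5760 spots called in all.

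Outside liver, Scp2 levels spanned 0.67 log2 units. J774 was next, with 16.92 and 16.91, above 3T3-F442A adipocytes at 16.57, 16.75 and 16.76, and these neighbours did not overlap, as for 15.1% of all spots. The preadipocyte lines were spread: Hgfu had 16.94 and Ob1774 16.68, against 16.23 to 16.34 in the 3T3 lines. Peritoneal macrophages were lowest, with 16.30, 16.20 and 16.25, just below ES cells with LIF at 16.31, 16.52 and 16.31. The nearest samples were almost equal, at 16.305 in peritoneal macrophages and 16.3066 in ES cells, and 6.28% of all spots were separated that way. Against the macrophage lines they were lower by 0.41 ± 0.22 (SE, limma adjusted p = 0.409), where 2.9% of spots were called. Of these lines, Raw 264, with 16.36, 16.57 and 16.28, overlapped with the peritoneal macrophages. Scp2 was also lower in every peritoneal macrophage sample than in every SVF sample (16.36, 16.40 and 16.50), by 0.17 ± 0.25 (SE, limma adjusted p = 0.995), and higher in every inguinal adipocyte sample than in tibialis, by 0.26 ± 0.27 (SE, limma adjusted p = 0.999). Such separation was seen in 7.6% and 13.8% of all spots, and neither was called.

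Pex7 encodes the receptor that brings proteins with a type 2 targeting signal into peroxisomes, among them thiolase and a plasmalogen synthesis enzyme. Its gene lies at chr10:19860090-19907674. Its levels were 16.13, 16.18 and 16.05 in inguinal adipocytes, against 17.03, 16.82 and 16.33 in SVF, the group with the highest mean of the 13. Each adipocyte sample was lower than each SVF sample, and SVF replicate 3 was clearly lower than replicates 1 and 2. The percentile within the array was 8.44, 13.4 and 2.93 in adipocytes, against 88.6, 82.8 and 33.4 in SVF.

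Pex7 was 0.61 ± 0.14 log2 units lower in inguinal adipocytes than in SVF (SE, limma adjusted p = 0.0255), the only member called there. In this comparison 0.451% of all spots were called lower and 9.17% had all adipocyte samples lower. The adipocytes were freshly isolated and the SVF had been plated for 24 h, so cell type and plating cannot be told apart here. The call was lost when any one of 5 of the 6 samples was left out: without SVF replicate 1 the difference was -0.45 (limma adjusted p = 0.222), while without SVF replicate 3 it was -0.80 and called. With only these 2 groups in the fit and no block, the limma adjusted p was 0.101 and 112 spots were called. In that fit, the replicate number was also added as a block, which treats same-numbered samples as pairs. The difference was then -0.61 with limma adjusted p = 0.0241, and 231 spots were called. The sample titles state no pairing.

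Few markers of cell types were called in the same comparison. Of 4 adipocyte markers, 2 were called higher in inguinal adipocytes; none of the 5 macrophage, 2 fibroblast and matrix, 2 endothelial, 1 erythroid and 2 lymphocyte markers was called. The mean of the 2 endothelial markers was 16.23, 16.27 and 16.38 in adipocytes, against 16.48, 16.76 and 16.73 in SVF, and its part in the Pex7 difference was not tested.

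Peritoneal macrophages, which like SVF were adherent cells 24 h after plating, had Pex7 at 16.23, 16.31 and 16.20. They are another cell type from another site, and the part of plating in the Pex7 levels was not tested. Every macrophage sample was below the lowest SVF sample, as for 7.6% of spots. The difference was -0.48 ± 0.14 (SE, limma adjusted p = 0.184), with 0.174% of spots called lower, and without SVF replicate 3 it became -0.68 and was called (limma adjusted p = 0.00904). Of 5 macrophage markers, 4 were called higher in the macrophages in this comparison.

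Pex7 in liver had 16.44 and 16.39, against 16.07 and 16.14 in tibialis, and was 0.31 ± 0.17 higher (SE, limma adjusted p = 0.396). Both liver samples were above both muscle samples, which held for 22.6% of all spots. Liver was above all inguinal adipocyte samples too, by 0.29 ± 0.15 (SE, limma adjusted p = 0.301), as for 17.7% of spots. Tibialis had the lowest Pex7 mean of the 13 groups, and both its samples were below C2C12 myotubes at 16.36 and 16.20, by 0.17 ± 0.17 (SE, limma adjusted p = 0.878), as for 18.5% of spots. No member was called between tibialis and myotubes, where 0.92% of spots were.

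Among the remaining comparisons no member was called. The share of all spots called was 0.382% in inguinal adipocytes minus tibialis, 2.47% in inguinal adipocytes minus 3T3-F442A adipocytes and 0.226% in ES cells with LIF minus the mesenchymal and preadipocyte lines. Between inguinal and 3T3-F442A adipocytes the widest difference was that of Pex7, -0.20, and all 5 genes overlapped. ES cells with LIF overlapped with the mesenchymal and preadipocyte lines for every member. The 3 ES cell samples without LIF had Pex7 at 16.37, 16.43 and 16.30, and those with LIF at 16.24, 16.25 and 16.195. Slc27a2 had 16.22, 16.20 and 16.22 without LIF, and 16.32, 16.35 and 16.26 with LIF. The samples without LIF were all higher for Pex7, as for 7.95% of all spots, and all lower for Slc27a2, as for 8.04%. The other 3 genes overlapped.

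Of the other genes of these pathways, 22 listed genes had a spot: 5 of mitochondrial oxidation, 8 of peroxisomal metabolism, 3 of peroxisome biogenesis, 2 of fatty acid uptake, 1 of ketone body metabolism and 3 regulators. In the limma F test 6 of the 22 were called, namely Etfa, Acsl4, Idh1, Gstk1, Lpl and Oxct1, where 10.9% of all spots were. Pex2, Pex5 and Pex13, which act with Pex7 in protein import, were not called in it or in any comparison, and neither was Ehhadh, an enzyme of peroxisomal beta-oxidation.

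In liver minus tibialis, 2 of the 22 were called higher and none lower, with a median of -0.07 against -0.01 over all spots. Etfa, a subunit of the flavoprotein that takes electrons from the first oxidation step, had 17.50 and 17.22 in liver, against 16.53 and 16.77 in tibialis, a difference of 0.71 ± 0.15 (SE, limma adjusted p = 0.00546). Idh1, the NADP-linked isocitrate dehydrogenase of cytosol and peroxisomes, had 17.04 and 17.05 in liver, against 16.42 and 16.34, a difference of 0.66 ± 0.15 (SE, limma adjusted p = 0.0136). In both genes the liver samples lay above muscle. The same pair was called in liver minus inguinal adipocytes, Etfa at 0.70 ± 0.14 (SE, limma adjusted p = 0.00219) and Idh1 at 0.49 ± 0.14 (SE, limma adjusted p = 0.0450), where the median of the list was 0.05. Both comparisons share the liver samples.

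**Figure D4:**
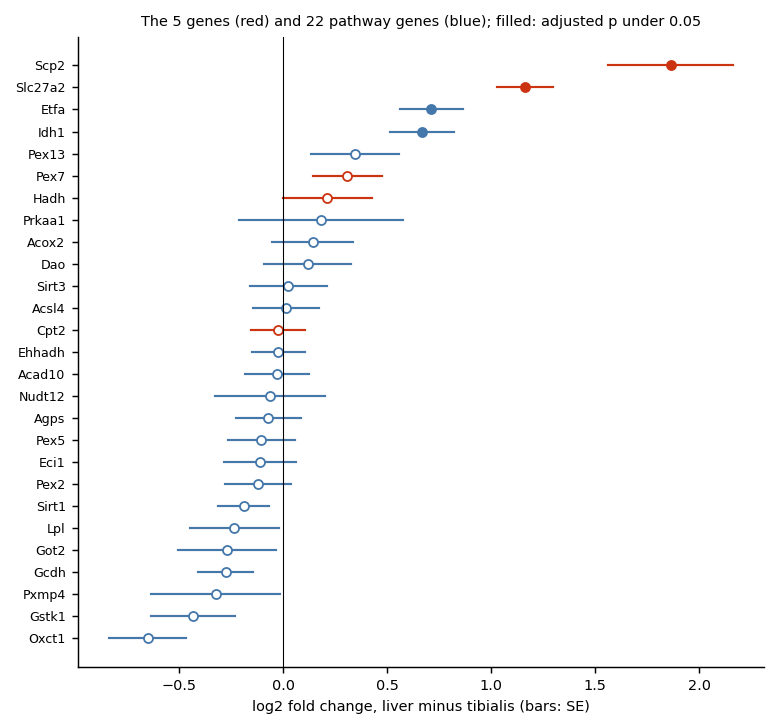
Log2 fold change in liver minus tibialis (x axis, bars: SE) of the 5 genes (red) and the 22 other genes of the pathways (blue). Filled points had a limma adjusted p under 0.05, which were Scp2, Slc27a2, Etfa and Idh1, all higher in liver.

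Peritoneal macrophages differed from the macrophage lines in other genes of the list. Idh1 had 17.56, 17.30 and 17.33 in peritoneal macrophages, against 16.51 to 17.05 in the 5 line samples, and was 0.73 ± 0.11 higher (SE, limma adjusted p = 0.000163). Oxct1, the enzyme that activates ketone bodies for use as fuel, had 17.06, 17.45 and 17.18, against 16.54 to 16.79, and was 0.58 ± 0.14 higher (SE, limma adjusted p = 0.0124). Neither overlapped, as for 6.28% of all spots. Idh1 was also higher than in SVF, by 0.65 ± 0.13 (SE, limma adjusted p = 0.00525).

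Lpl, lipoprotein lipase, which frees fatty acids for uptake, was the 1 gene of the list called, higher, in 3T3-F442A adipocytes minus preadipocyte lines, and was called lower in inguinal than in 3T3-F442A adipocytes by 0.69 ± 0.17 (SE, limma adjusted p = 0.0250). Acsl4, an acyl-CoA synthetase that prefers arachidonic acid, had 16.17, 16.29 and 16.16 in ES cells with LIF and fell by 0.51 ± 0.11 relative to the mesenchymal and preadipocyte lines (SE, limma adjusted p = 0.0302). None of the 22 was called in the other 4 comparisons. In inguinal adipocytes minus SVF, where Pex7 was called lower, the median of the list was 0.07, against 0.02 over all spots.

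The members did not share a pattern. Scp2 and Slc27a2 correlated at 0.918 over the 13 group means, and at -0.03 over the 12 without liver. Cpt2 and Hadh correlated at 0.545, and at 0.487 without liver. Hadh and Scp2 were similar, at 0.574 and at 0.482 without liver. All pairs share the same arrays. The spots most like Slc27a2 over the 13 group means, among 3235 searched, were Akr1c6 (r = 0.977), Hpx (0.964) and Pzp (0.961), and those most like Scp2 were Hpx (0.959), Spp2 (0.948) and Apoc1 (0.939). Hpx and Apoc1 are on the hepatocyte marker list. For Pex7 they were Bsn (0.911), Bcar1 (0.859) and Fgfr4 (0.856), for Cpt2 Odf2l (0.881), Otud6b (0.855) and Lrfn3 (0.854), and for Hadh Ephb1 (0.768), Tma7 (0.762) and Slurp1 (0.753). These are descriptions over group means of a few samples each. Each match is among the 3 highest of 3235 correlations over 13 means, and none was tested. Cpt2, Hadh and Pex7 were not called by the F test.

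**Figure D5:**
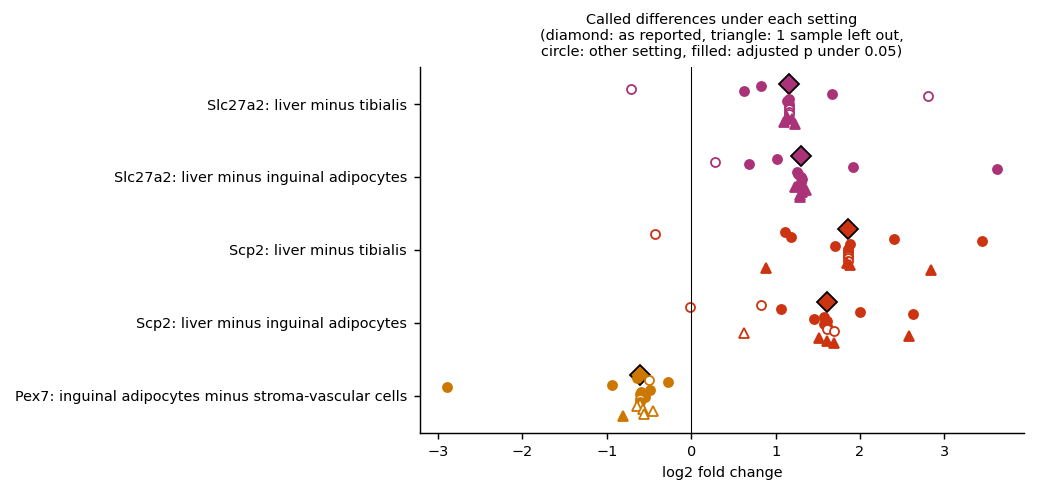
The 5 called differences (rows) as log2 fold changes (x axis) under the reported setting (diamond), with 1 sample left out (triangles) and under each other setting (circles), filled where the limma adjusted p was under 0.05. The points left of 0 for Scp2 and Slc27a2 are fits without scaling; Pex7 stays left of 0 throughout but is often open.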

How the data were processed

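Spot intensities were deposited by the authors as linear values for 5760 spots in 40 samples. Tripure extraction, DNase treatment, cDNA labelling with 33P, Resgen filters and Imagene quantification are named per the labels' protocols, while scaling and background correction are not given in the sources. Arrays were quantile normalised, and log2 was taken after adding 36370, the 10th percentile of all normalised intensities. Fold changes are therefore smaller than without an offset, most of all for dim spots. All 14 groups entered 1 limma 3.58.1 fit in R 4.3.3 (25 residual degrees of freedom), two-sided, with Benjamini-Hochberg adjustment over all 5760 spots and calls at an adjusted p under 0.05. The fit was run on simulated data in which a spot had the same spread in every group. This does not cover unequal spreads, such as that of Scp2 in liver. Symbols came from the platform annotation (3420 spots with 1 symbol, 98 with several, 2242 with none), updated by gene identifier to GRCm38.p6 for 3346. Figures used matplotlib 3.10.9 in Python 3.11.15.

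The members and lists were chosen with earlier results of these data known. Members are named wherever called and in the account of levels, list genes up to 4 per comparison by smallest p among those called, and like profiles as the 3 highest correlations per gene. In inguinal adipocytes and SVF, same-numbered deviations correlated at 0.259, 0.102 and 0.386. Such values were also positive elsewhere, as for inguinal adipocytes and tibialis (0.200 and 0.113), and negative in others, as for liver and tibialis (-0.111). The sample titles state no pairing. Alternatives were other scalings, offsets, background, filters, variance models, array weights, groups, a replicate block and leaving out each sample. The replicate block and the crossed block were fitted with only the compared groups. The crossed block, and the level of each liver sample on its own, were added after seeing the data.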

Additional observations from a re-analysis of the deposited data

Results flagged for a closer look

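Pex7 in the preadipocyte lines had 1 line apart from the rest. The 3T3-F442A line had 16.74, against 16.28 to 16.32 in the other 3 lines (3T3-L1 as the mean of its 2 samples), and the gap was 0.917 of the whole range of the 4 lines. Chance sets a sample apart by this measure in about 1 in 20 groups, and 5 genes were looked at.

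Pex7 averaged 16.36 in ES cells without LIF, whose arrays enter no test between groups, and 16.23 in those with LIF. Each of the 3 samples without LIF (16.30 to 16.43) lay above each of the 3 with LIF (16.195 to 16.25), as for 7.95% of all spots. Slc27a2 was separated the other way, at 16.20 to 16.22 without LIF and 16.26 to 16.35 with LIF, as for 8.04% of spots. Neither difference was tested, and the arrays without LIF have another spread of intensities, as given above.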

How the results depend on the processing

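Over 1019 values of single genes, which include F values without a direction, 981 kept their side of the threshold. Another 21 lost a call, 12 gained one and 5 reversed, with a call before or after. Among the 981, 84 changed sign while called in neither fit. Most of the 981 were called neither before nor after, so their number says little about the reported calls. With all samples of the compared groups kept, Scp2 stayed called in 9 of 13 other settings against tibialis and 8 of 12 against inguinal adipocytes. Slc27a2 stayed called in 7 of 12 and 10 of 11 there. For Pex7 in inguinal adipocytes minus SVF it was 9 of 11. The reversals were all without scaling: in liver minus tibialis Hadh -1.34, Scp2 -0.43, Slc27a2 -0.71 and Pex7 -1.16, where the median of all spots was -1.53, and in liver minus inguinal adipocytes Scp2 -0.019, where it was -0.75. Of the 2 members called in liver minus tibialis, 1 was called with background subtraction and with bright spots only, and 0 with only the compared groups, the replicate block or the crossed replicate block. Without scaling neither of the 2 was called, and 3 other members were called lower there (Cpt2 at -1.58, Hadh and Pex7). Bright spots leave out Cpt2, Slc27a2 and Pex7 by construction. Of the 2 in liver minus inguinal adipocytes, 1 was called with median scaling, bright spots only, only the compared groups or the replicate block, 0 without scaling, and 1 to 2 with a sample left out. The 1 in inguinal adipocytes minus SVF became 0 without scaling, with bright spots only or only the compared groups, 2 with array weights and 0 to 1 with a sample left out. Array weights called 1 member in 3T3-F442A adipocytes minus preadipocyte lines, 2 in peritoneal macrophages minus macrophage lines and 1 in peritoneal macrophages minus SVF, where removal of a local trend called 1 and leaving out a sample 0 to 1, against 0 as reported in all 3. The F test called 2 members, but 0 without scaling, 4 with array weights, 1 with bright spots only, and 3 with the local trend removed or with an intensity trend and robust variance, where Pex7 joined (limma adjusted p = 0.0325 and 0.0378). The cause of these changes was not tested.

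Counts over all spots moved more. Liver minus tibialis called 108 spots, 18 with median scaling, 5632 without scaling (all lower), 70 with bright spots only, 2 with only these groups and 48 to 199 with a sample left out. Liver minus inguinal adipocytes called 217, 29 with median scaling, 406 without scaling, 50 with array weights, 1 with only these groups and 92 to 292 with a sample left out. Inguinal adipocytes minus SVF called 36, 1 without scaling and 522 with array weights. It called 112 with only these groups, 231 with the replicate block added to that fit, and 14 to 37 with a sample left out. Replicate numbers of liver and tibialis correlated at -0.111, and the replicate block called 6 spots there with same numbers and 4 with crossed ones. The number of arrays, 2 in each tissue, limits the precision.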
